A study of Mus musculus with 3 samples.

Results

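Tbx4-only sites inside genes are the places in the hindlimb genome where a Tbx4 summit was listed within the body of a protein-coding gene and no Hoxc10 summit was listed beside it. They came from chromatin immunoprecipitation with sequencing (ChIP-seq), in which DNA bound by a protein is pulled down with an antibody and sequenced, on buds of the hindlimb from e11.5 embryos of wild-type CD1 mice. Tbx4 was pulled down with a homemade antibody (1695a), and Hoxc10 with an Abcam antibody (ab153904). The sample in which Santa Cruz antibody was used against Hoxc10 was not analysed here. A site was chosen when no Abcam Hoxc10 summit lay within 200 bp, when it was over 1 kb from both ends of every protein-coding gene, and when at least 1 such gene contained it. This held for 1668 of the 4780 listed Tbx4 sites, or 34.9% (95% Wilson interval 33.6 to 36.3%). Each factor is represented by 1 list from 1 sample, so nothing below was tested between samples. Intervals cover counting error over sites only. "Tbx4-only" refers to these lists and not to all binding of Hoxc10. The sites were chosen by measured values, namely a listed Tbx4 summit, its distance to Hoxc10 and its position, which are given as a description.

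Tbx4 is a T-box transcription factor of the hindlimb bud and belongs to a family that recognises DNA through variants of the T-box half-site AGGTGT. Much of the control of limb genes is exerted by enhancers far from promoters, and many of these lie inside introns, either of the gene they control or of an unrelated neighbour that merely hosts them. Being inside a gene therefore gives a site's place and not its target. The gene table used here has no exons, so introns, exons and untranslated regions were not told apart.

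A few of the sites lay at transcript starts that the outer ends of a gene do not show. RefSeq's promoter table for GRCm38.p6, the assembly of mm10, lists 250 bases before and 50 after each start it holds, and it does not hold starts for every gene. On the chromosomes it covers were 1600 of the sites, and 52 of these, or 3.25% (2.49 to 4.24%), were within 250 bp of a start, 44 of them a start of the host gene itself and 8 a start of a gene outside the protein-coding set. The stretches below are shown because they hold such a summit. They belong to the highest-scoring sites whose summit was upstream of the start, are read 5′ to 3′ on the strand of the start, and reach up to 50 bases to each side of the summit without passing the start. Coordinates are on mm10, and capitals mark AGGTGT or its reverse ACACCT.
Nat10, start of Nat10, chr2:103761318-103761418, minus strand: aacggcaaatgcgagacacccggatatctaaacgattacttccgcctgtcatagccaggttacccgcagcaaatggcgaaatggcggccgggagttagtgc
Copz1, start of Gm41406, chr15:103289626-103289726, minus strand: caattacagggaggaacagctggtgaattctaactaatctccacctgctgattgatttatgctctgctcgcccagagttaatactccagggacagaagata
Tnrc18, start of Tnrc18, chr5:142817803-142817903, minus strand: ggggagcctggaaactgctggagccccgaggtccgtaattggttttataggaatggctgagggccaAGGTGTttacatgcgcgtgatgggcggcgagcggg
Rsrc1, start of Rsrc1, chr3:66985589-66985661, plus strand: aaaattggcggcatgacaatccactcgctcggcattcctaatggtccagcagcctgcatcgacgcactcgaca
Atxn2l, start of 4930456A14Rik, chr7:126503710-126503805, plus strand: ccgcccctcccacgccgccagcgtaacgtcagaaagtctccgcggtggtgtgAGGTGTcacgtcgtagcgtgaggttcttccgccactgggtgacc
Grid2ip, start of Grid2ip, chr5:143363815-143363912, plus strand: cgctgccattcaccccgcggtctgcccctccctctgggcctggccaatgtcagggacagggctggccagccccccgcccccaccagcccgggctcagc
Ttll11, start of Gm10829, chr2:35841229-35841316, plus strand: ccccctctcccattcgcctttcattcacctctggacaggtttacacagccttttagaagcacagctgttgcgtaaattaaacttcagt

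The core AGGTGT occurred in 2 of these stretches, in those from Tnrc18 and Atxn2l. At Atxn2l, which encodes an RNA-binding protein related to ataxin, it began 2 bases from the summit and at Tnrc18 16 bases from it. Over the whole windows the interval of the share took in that of all promoters: 7 of 37 windows with a summit held it, or 18.9% (9.48 to 34.2%), and 13.7% of all 32851 promoter windows did. The longer form AGGTGTGA, or TCACACCT on the other strand, was in 0 of the 37 windows and in 1.28% of all. The windows with a summit were richer in G and C, at a median of 61.3%, against 52.7% in all windows, and held a median of 21 CG dinucleotides, against 7. For the gene-end sites of the Tbx4 list, the 178 windows had medians of 63.7% and 25, and 14.6% held the core.

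The score is the value that the authors' peak caller gave each summit on a −log10 scale. The highest within 250 bp of a start belonged to Nat10, an RNA acetyltransferase gene, at 20.91, with its summit 98 bases before the start. At Dgka, a diacylglycerol kinase gene, the site scored 18.38, 3 bp from the start. At Rsrc1, the gene that neighbours Shox2, the site scored 9.15, 23 bases before an inner start, and its nearest Hoxc10 summit was 0.240 kb away. Further examples, picked after their values were seen, are Prrx1, Axin2, Mef2a and Bcl11a. The site at Prrx1, a homeodomain factor of limb mesenchyme, scored 6.19, 148 bp from a start. That at Axin2, a feedback inhibitor of Wnt signalling, scored 4.46 at 190 bp. The site at Mef2a, a factor of muscle, scored 3.67 at 231 bp. At Bcl11a, a transcriptional repressor gene, the site scored 2.94 at 11 bp. The median was 3.67 for the 52 sites, against 4.46 for the sites farther away, and 4 of the 52 scored 10 or more. Both values are among the most frequent scores and are neighbours in that series. The median of all 1668 sites was 3.67 (interval 3.67 to 4.46), so the medians do not set the 52 sites apart.

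A larger share of these sites than of gene interiors at large was close to an inner start. Bases within 250 bp of an annotated start made up 0.323% of the gene interior, which is all sequence inside protein-coding genes and over 1 kb from every gene end, while 3.25% of the sites were there. Within 1 kb the shares were 6.0% (4.94 to 7.27%) of the sites and 1.30% of the interior. Among Tbx4 sites inside genes that were shared with Hoxc10, 0 of 183 lay within 1 kb of a start (interval 0 to 2.06%). Of the Hoxc10-only sites inside genes, 4.51% (2.83 to 7.10%) did. The table had an entry for a host of 1308 of the sites. Over these, 3.67% (2.78 to 4.83%) were within 250 bp and 6.88% (5.63 to 8.38%) within 1 kb of a start, against 0.373% and 1.5% of the interior of genes with an entry. These shares describe the lists, and the differences were not tested.

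**Figure D1:**
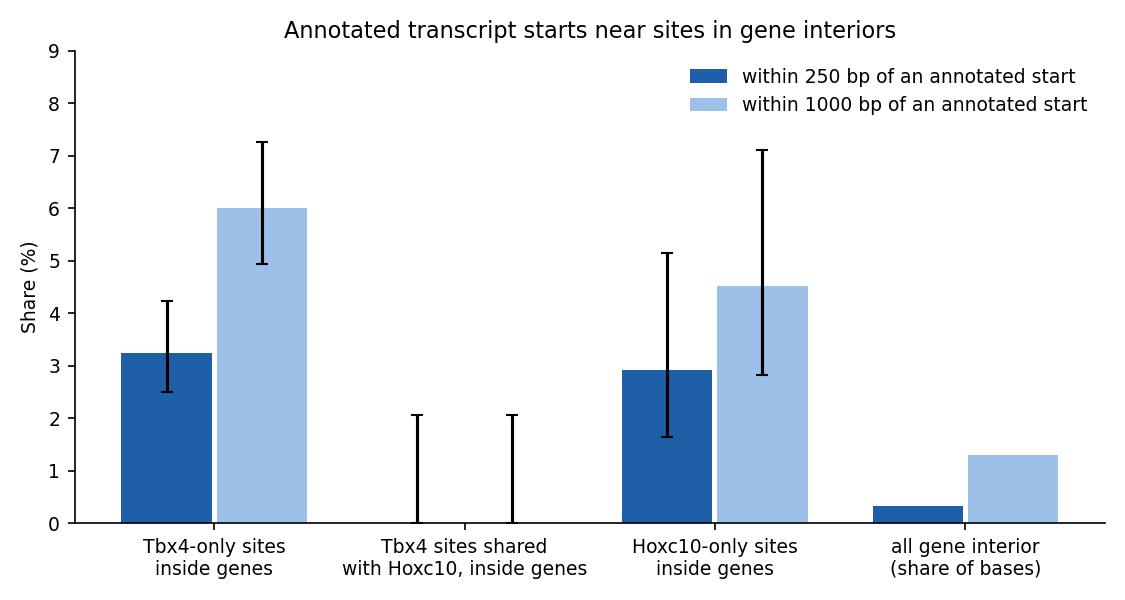
Share (%) of sites in gene interiors within 250 bp (dark bars) or 1000 bp (light bars) of an annotated transcript start, with 95% Wilson intervals, and the same share of all interior bases. The Tbx4-only sites reach 3.25% and 6.0%, the shared Tbx4 sites are at 0%, and the interior bases are at 0.323% and 1.30%.

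Of all 4261 Tbx4-only sites, 39.1% (37.7 to 40.6%) were inside genes, and of the 519 shared sites 36.8% (32.8 to 41.0%). The interior made up 36.7% of the sequence between the first and last genes of the chromosomes. The density was 1.69 sites per Mb (95% Poisson interval 1.61 to 1.77) in 988 Mb. Tbx4-only sites at gene ends stood at 7.65 per Mb (7.06 to 8.29), those between genes and 1 to 100 kb from a gene end at 1.40 (1.32 to 1.48), and those farther than 100 kb from any gene end at 1.04 (0.966 to 1.11). The rule left out sites within 1 kb of a gene end. Among those kept, the median distance to the nearest gene end was 36.1 kb (quartiles 11 and 89.2). For 366 of them, or 21.9%, it was over 100 kb. This distance was not computed for gene interior sequence at large. For 136 sites the nearest gene end belonged to a gene other than the host.

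The sites fell into 1183 host genes, 5.41% of the 21887 protein-coding genes. Only 14 sites were inside 2 genes at once, and the others were inside 1. Hosts were long. Their median length was 129 kb (interval 116 to 142), against 17.2 kb for all protein-coding genes. A long gene offers more room, and length is best read against that room. Counted once per site, the median host length was 183 kb (170 to 196; quartiles 70.9 and 385), while the interior sequence itself, base by base, had a median gene length of 150 kb (quartiles 58.6 and 394). Shared Tbx4 sites inside genes had longer hosts still, with a median of 254 kb (217 to 314), and Hoxc10-only sites inside genes one of 245 kb (223 to 294). Genes that contained a Tbx4-only gene-end site had a median of 17.1 kb.

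By length class, 0.492% of the genes under 10 kb hosted a site, 2.20% of those of 10 to 30 kb, 6.34% of those of 30 to 100 kb, 22.0% of those of 100 to 300 kb and 48.1% of those over 300 kb. Per Mb of interior the classes differed far less. Genes under 10 kb had 2.39 sites per Mb (1.72 to 3.23), those of 10 to 30 kb 1.45 (1.23 to 1.70), those of 30 to 100 kb 1.36 (1.22 to 1.5), those of 100 to 300 kb 1.96 (1.80 to 2.12) and those over 300 kb 1.75 (1.61 to 1.90). Scores in the shortest hosts were low, with a median of 2.94 and 3 of 42 sites at 10 or more (7.14%, 2.46 to 19.0%). In hosts of 30 to 100 kb 17.5% (13.9 to 21.8%) reached 10, and in hosts over 300 kb 14.3% (11.6 to 17.5%).

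**Figure D2:**
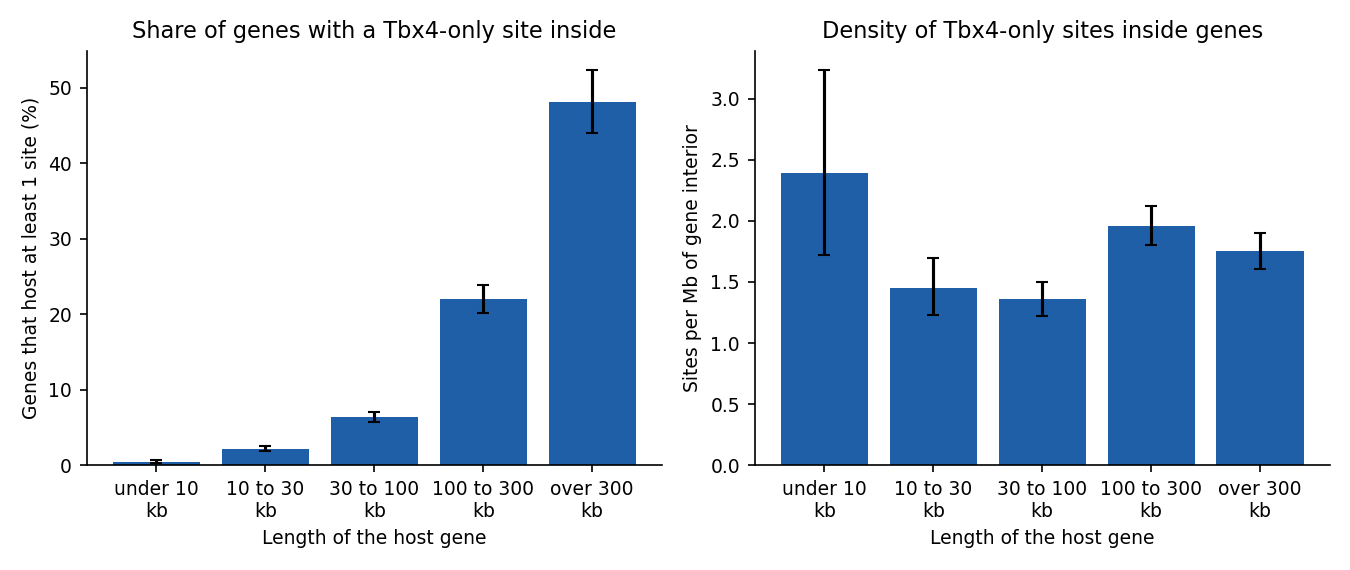
Left, share (%) of protein-coding genes of each length that hosted at least 1 Tbx4-only site in their interior, with 95% Wilson intervals. Right, sites per Mb of interior sequence with 95% Poisson intervals; the share climbs from 0.492% to 48.1% along the length classes while the density stays between 1.36 and 2.39 per Mb.

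The longest hosts differed in their number of sites. Cntnap2, a neuronal adhesion gene of 2241 kb, held 1 site with a score of 2.26, and Lsamp, of 2197 kb, held 2 with a best score of 6.19. Macrod2, of 1998 kb, held 6, the best at 30.28. The shortest hosts were the predicted genes Gm20815 (2.92 kb, on chromosome Y) and Gm46238 (3.66 kb) and the zinc finger gene Zfp513 (3.68 kb). They held 1 site each, with scores of 2.58, 2.94 and 3.67. The site at Zfp513 was 581 bp from an inner start of that gene.

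Most hosts had a single site. There was 1 in 887 hosts (75%), 2 in 200 and 3 or more in 96, and 25 hosts had at least 5. Together the 296 hosts with 2 or more contained 793 of the sites, or 47.5%. Neighbouring sites of a host were a median of 45.1 kb apart (quartiles 17.3 and 115), 29 of the 499 gaps were under 1 kb, and the smallest was 337 bp.

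Lrmda, the leucine-rich melanocyte differentiation gene, had the most, 11 sites over 1037 kb. They scored 9.15, 2.94, 5.30, 2.26, 13.57, 19.64, 19.64, 5.30, 5.30, 5.30 and 2.26 in order of position. The gene also held 14 Hoxc10 summits and 6 shared Tbx4 sites. Tenm4, a teneurin gene of cell adhesion, had 8 sites over 740 kb, with scores of 2.26, 8.12, 26.17, 87.04, 22.20, 4.46, 15.93 and 2.94. Its 3 highest lay between 439 and 497 kb from the lower-coordinate end, and 87.04 was the fifth highest score of all the sites. Its relative Tenm3 had 7 over 1297 kb, none above 6.19, beside 5 Hoxc10 summits, 4 of which met a shared Tbx4 site.

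Transcription factor genes were among these hosts too. Sox5, a partner of Sox9 in cartilage formation, had 7 sites over 954 kb, scoring 8.12, 2.94, 8.12, 4.46, 8.12, 6.19 and 4.46. Rora, an orphan nuclear receptor gene, had 7 with a best score of 27.52. Mecom, a zinc finger regulator gene, had 6 with scores of 28.89, 4.46, 12.42, 23.51, 2.94 and 8.12. Jazf1, a zinc finger gene of 301 kb, had 7 in the shortest of these 10 hosts, 2.33 per 100 kb, with a best score of 15.93. Frmd4a, a scaffold gene of epithelial polarity, had 7 (best 14.74), the adhesion gene Ntm 7 (best 7.14), and the oxidoreductase gene Wwox 6 (best 35.95).

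**Figure D3:**
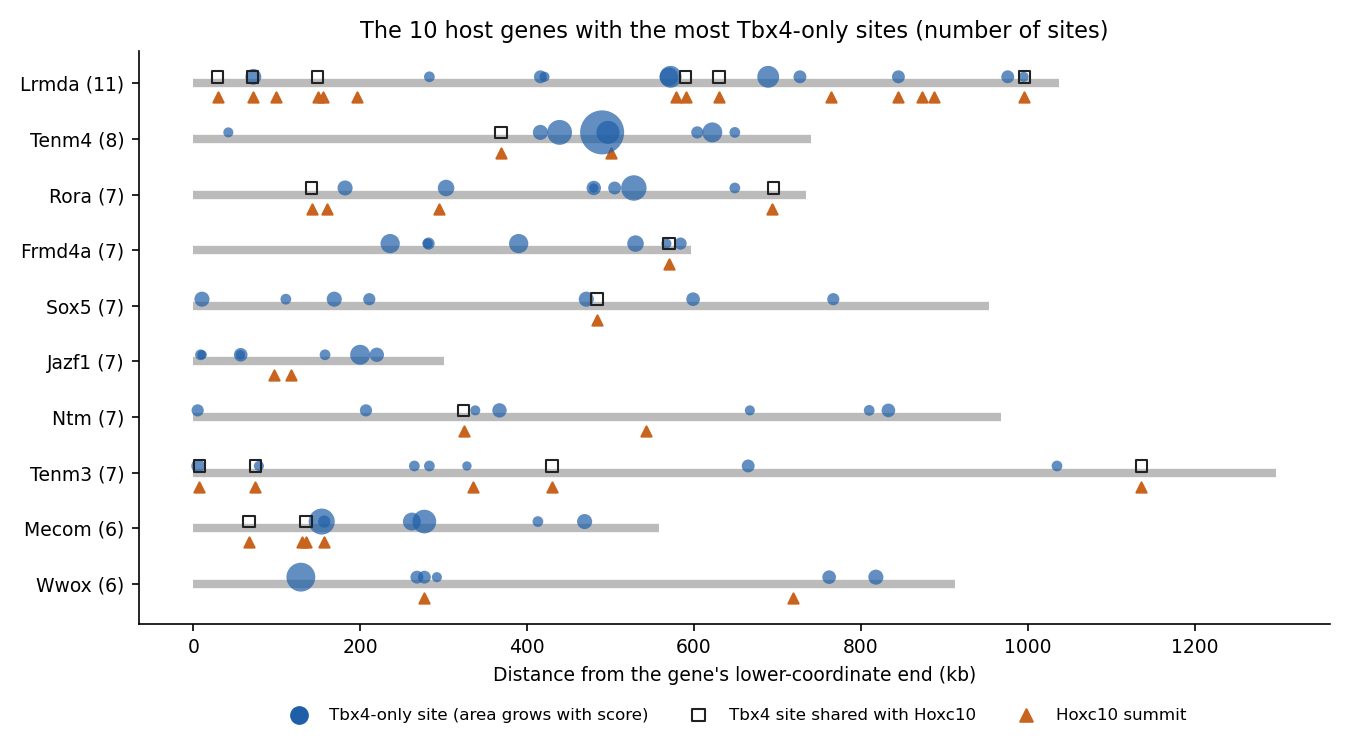
Positions of Tbx4-only sites (blue, area growing with the score), of shared Tbx4 sites (open squares) and of Hoxc10 summits (orange triangles) along 10 hosts with the most sites (ties at 6 sites broken by summed score), as distance in kb from the lower-coordinate end of each gene. Lrmda carries 11 Tbx4-only sites and 14 Hoxc10 summits over 1037 kb, and the largest circle is the 87.04 site of Tenm4.

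Scores were mostly low, with a long upper tail. The median was 3.67 (interval 3.67 to 4.46; quartiles 2.94 and 6.19), and 644 of the 1668 sites scored 2.94 or less. A score of 10 or more was reached by 251 sites, 15.0% (13.4 to 16.8%). Of the Tbx4-only sites at gene ends 6.44% (4.74 to 8.68%) did so, of those between genes and 1 to 100 kb away 14.3% (12.4 to 16.5%), of those over 100 kb away 13.0% (10.9 to 15.5%), and of the shared sites 36.4% (32.4 to 40.6%). The classes away from gene ends and Hoxc10 had the same median and quartiles. Among the 50 highest scores of the Tbx4 list, 15 belonged to Tbx4-only sites inside genes and 20 to shared sites.

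**Figure D4:**
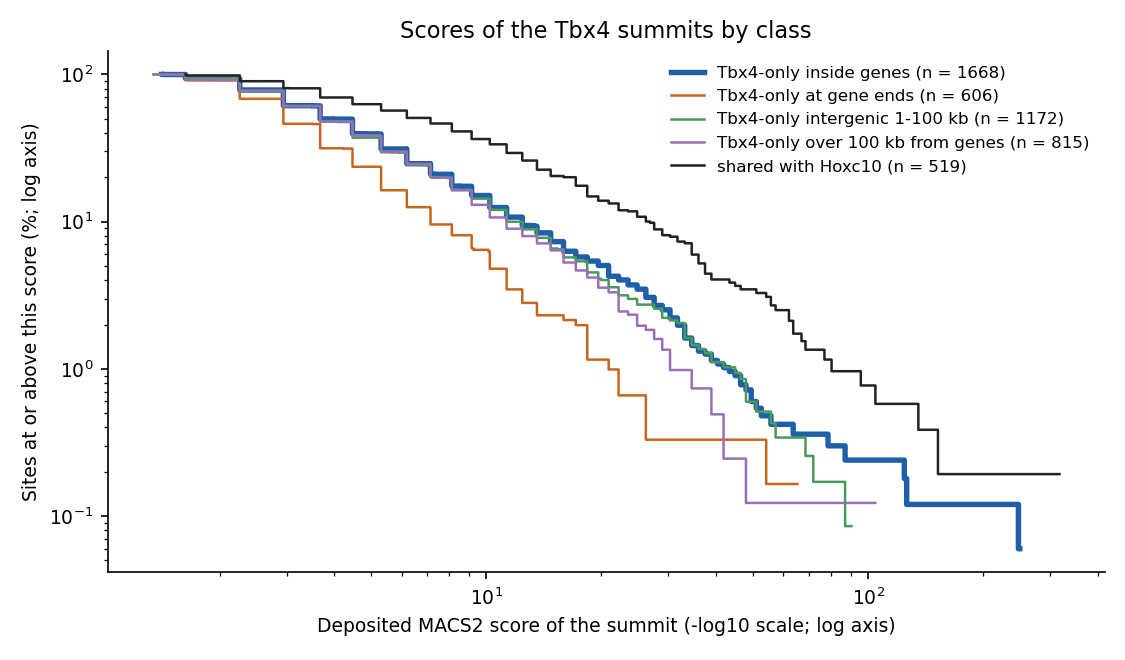
Share (%) of Tbx4 sites at or above each MACS2 score (−log10 scale), both axes logarithmic, for the 5 classes of the Tbx4 list. The line of Tbx4-only sites inside genes (thick blue) passes 15.0% at a score of 10, with the shared sites above it at 36.4% and the gene-end sites below it at 6.44%.

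The 10 highest-scoring sites were each in a different host. The 249.7 site of Hsd11b2, a gene of glucocorticoid inactivation, lay 1069 bp from the end of this 5.24 kb gene, just inside the 1 kb limit. The 247.6 site of Trio, a guanine nucleotide exchange factor for small GTPases, lay 284 kb from the 5′ end of its 295 kb host. Trio's 2 other sites scored 3.67 and 7.14, so that within this host the levels were far apart. The site of Cntfr, a cytokine receptor subunit, scored 126.2 and was 2.26 kb from the 3′ end. That of Rnf24, a RING finger gene, scored 124.4, and its nearest gene end was that of Pank2, 5.95 kb away. After Tenm4 came Xrcc5, the Ku80 subunit of DNA repair, at 78.53, and Crocc2 at 63.65. Scube1, a secreted and membrane-associated signalling protein gene, scored 55.65. Dysf, the dysferlin gene of muscle membrane repair, scored 52.52, with 3 more sites of 4.46, 7.14 and 8.12. Col9a1, a collagen of cartilage, had a single site of 50.96, 18.7 kb from its 5′ end. The nearest Hoxc10 summits to these 10 sites were between 11.4 kb (Tenm4) and 5765 kb (Cntfr) away.

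Sites were spread along the whole host. With the host's length divided into 10 equal bins, counted from the 5′ end on 1318 pairs of site and host with known strand, the share ran between 8.27% (bin 1) and 11.7% (bin 6), where the interior sequence gave between 8.65% and 10.4%. Near the ends there was a difference. At 1 to 5 kb from the 5′ end stood 116 sites, or 2.26 per Mb (1.87 to 2.72), and at the same distance from the 3′ end 67, or 1.31 per Mb (1.02 to 1.67). Of the 116, 47 lay within 1 kb of an annotated start, and of the 67, 3 did. From 5 to 20 kb the densities were 1.37 per Mb (1.16 to 1.61) from the 5′ end and 1.26 (1.06 to 1.49) from the 3′ end. From 20 to 50 kb the order was the opposite, 1.36 per Mb (1.13 to 1.63) from the 5′ end and 1.91 (1.63 to 2.22) from the 3′ end. At 50 to 100 kb they were 1.97 (1.62 to 2.36) and 2.26 (1.89 to 2.68). A density of 2.26 was thus not particular to the 5′ end. Each base was counted for its nearer end only, so the farther bins hold only longer genes. Densities at different distances are therefore not matched for gene length. Strand was taken from the promoter table, and 364 pairs had none.

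In each of the dynamin genes Dnm1, Dnm2 and Dnm3 sites stood next to a microRNA gene. These genes encode GTPases that pinch off endocytic vesicles, and they host, on their opposite strand, the hairpins of miR-199 and miR-214. Both microRNAs are known from mesenchyme, and in mouse the Dnm3 pair is made from a long antisense transcript that normal skeletal growth requires. The sequences are given to identify the products of these loci, as RefSeq lists them for GRCm38.p6, with the seed, bases 2 to 8, in capitals. miR-199a-3p and miR-199b-3p share the seed CAGUAGU, and the other 3 each have their own.
miR-199a-5p: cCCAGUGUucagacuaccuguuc
miR-199a-3p: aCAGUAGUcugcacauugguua
miR-199b-3p: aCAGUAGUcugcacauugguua
miR-214-5p: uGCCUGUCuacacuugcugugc
miR-214-3p: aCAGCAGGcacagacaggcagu

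Mir199a-1, on the minus strand of chromosome 9 from 21496495 to 21496564 inside Dnm2, had a Tbx4 summit 420 bp upstream, with a score of 24.83. Mir199b, on the plus strand of chromosome 2 from 32318460 to 32318569 inside Dnm1, had a summit 361 bp upstream with a score of 10.21. A second summit of 10.21 lay 1438 bp from the 5′ end of that hairpin, on its far side. Mir214, on the plus strand of chromosome 1 from 162223368 to 162223477 inside Dnm3, had a summit 1536 bp downstream with a score of 33.08. Mir199a-2, in the same host, was 7090 bp from that summit. The 4 further Tbx4-only sites of Dnm3 scored 3.67, 3.67, 2.94 and 8.12. The nearest Hoxc10 summits were 1456 kb from the Dnm2 site, 1277 kb from the Dnm1 site and 148 kb from the 33.08 site. The median over all the Tbx4-only sites inside genes was 397 kb. One of the Dnm3 sites of 3.67, by contrast, had a Hoxc10 summit at 0.269 kb. The microRNA loci were singled out after their values were seen.

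Of the 652 annotated hairpins inside protein-coding genes, 14, or 2.15%, had a Tbx4-only site within 2 kb. From the side of the sites, 10 of the 1668 had a hairpin within 2 kb, or 0.600%, and 0.224% of the interior sequence did. These 10 sites held the 33.08 and 24.83 of the dynamin genes. Another of 10.21 was in Mllt10, and the other sites apart from those of Dnm1 had scores of 3.67 or less. A single site of 2.94 in Rtl1, an imprinted gene of chromosome 12, accounted for 5 of the 14 hairpins.

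**Figure D5:**
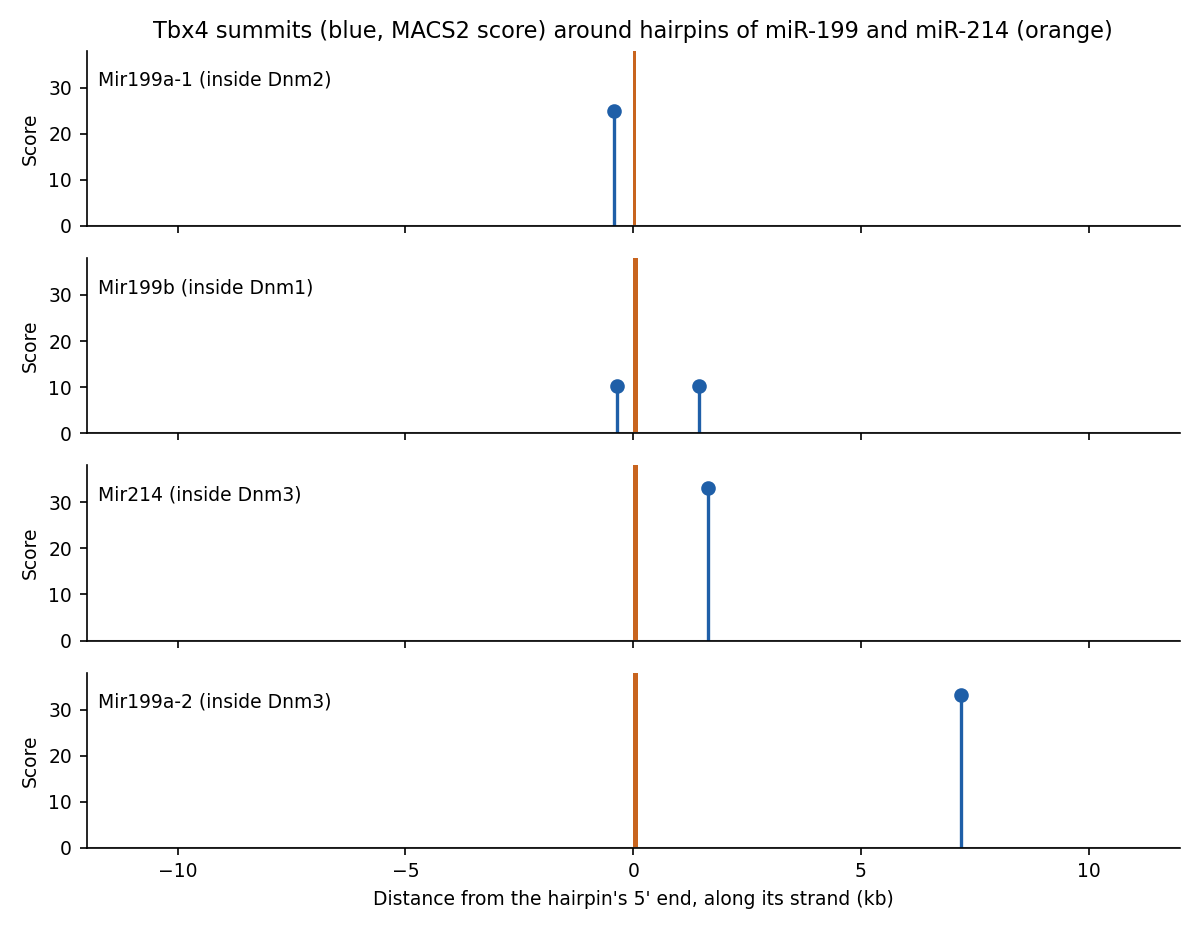
MACS2 scores (−log10 scale) of Tbx4 summits within 12 kb of 4 microRNA hairpins, against the distance in kb from the hairpin's 5′ end along its own strand; the orange bar marks the hairpin. Summits of 24.83 and 10.21 stand 420 and 361 bp upstream of Mir199a-1 and Mir199b, and 1 summit of 33.08 stands downstream of both Mir214 and Mir199a-2.

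The hosts were described by 17 gene lists, all 506 of whose genes were in the table. Long genes are hosts more often, so each count is set against 5.41% of all genes and, for genes of 100 kb or more, against 28.0%. Neither factor's own gene was a host. Of 38 limb patterning transcription factors 8 were hosts (21.1%, 11.1 to 36.3%), with 13 sites, none above 7.14. Of those of 100 kb or more 3 of 5 were hosts. Tbx15, a T-box factor of the limb and skin, had 3 sites of 6.19, 2.26 and 6.19. Its relative Tbx18 had 2, of 7.14 and 2.26, and the second was 0.374 kb from a Hoxc10 summit. Prrx2, a homeodomain factor of mesenchyme, had sites of 7.14 and 1.63, and Dach1, a nuclear cofactor gene, of 3.67 and 6.19. Prrx1 and the Hedgehog effector Gli3 had 1 each, at 6.19 and 5.30. Isl1, an initiator of the hindlimb, and Lmx1b, the dorsal determinant, had 1 each, at 2.94 and 1.63.

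Of 21 Hox genes and TALE cofactors 5 were hosts (23.8%, 10.6 to 45.1%), all of them cofactors and all over 100 kb. Meis2 had 3 sites with a best score of 7.14, Meis1 1 of 7.14, Pbx3 1 of 6.19 and Pknox2 1 of 3.67. These encode the homeodomain proteins that bind DNA together with Hox proteins.

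Of 32 cartilage and skeleton genes 11 were hosts (34.4%, 20.4 to 51.7%), and of those of 100 kb or more 8 of 11. Sox6, the relative of Sox5, had 5 sites of at most 4.46 over 570 kb. The Runx genes, factors of blood, bone and nerve, were all hosts. Runx1 had 3 sites of 3.67, 2.94 and 9.15, Runx3 had 2 of 5.30 and 18.38, and Runx2, the bone regulator, had 1 of 15.93. The Runx2 site lay 208 bp from a Hoxc10 summit of 12.24, the closest pair that still counted as separate. Trps1, a repressor gene of growth plate cartilage, had 1 site of 10.21, 0.312 kb from a Hoxc10 summit.

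Of 35 connective tissue, tendon and muscle genes 9 were hosts (25.7%, 14.2 to 42.1%; 8 of 13 of 100 kb or more). Eya2, a phosphatase that works with homeodomain factors of the sine oculis family, had 4 sites of 3.67, 8.12, 30.28 and 2.94. Fbn2, a fibrillin of the embryonic matrix, had 35.95 and 2.26. Tcf4 had 3 of at most 8.12 and Tcf7l2, a marker of limb connective tissue, 2 of at most 4.46.

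Signalling genes were hosts in 8 of 42 cases for FGF, BMP and TGF-beta (19.0%, 9.98 to 33.3%; 5 of 8 of 100 kb or more). Fgfr1, a receptor for the outgrowth signals, had 1 site of 31.67, and Fgfr2 had 2 of 5.30 and 2.94. Bmpr1b, a BMP receptor of digit cartilage, had 9.15 and 17.15, and Bmp5 had 4.46 and 10.21. Of 56 Wnt, Notch, Hedgehog and retinoid genes 10 were hosts (17.9%, 10 to 29.8%; 6 of 13 of 100 kb or more). The highest was in Wnt11, a ligand of non-canonical Wnt signalling. It scored 33.08 and lay 892 bp upstream of an inner start of this 19.7 kb gene. Maml3, a Notch coactivator, had 23.51 and 4.46. Ror1, a Wnt5a receptor, had 4 sites of at most 2.94, and Notch2 had 3 of at most 4.46.

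Of 37 corepressors and chromatin regulators 13 were hosts (35.1%, 21.8 to 51.2%; 10 of 16 of 100 kb or more). Auts2 had 6 sites, the best at 22.20, and 5 Hoxc10 summits. The histone deacetylase gene Hdac9 had 4 with a best of 10.21, and the chromatin remodeller gene Chd7 3 of at most 2.94. Tle3, a corepressor of the Groucho family, had 1 of 27.52. Of 9 genes known to house enhancers of a neighbour 4 were hosts (44.4%, 18.9 to 73.3%; 4 of 6 of 100 kb or more). Rsrc1, beside Shox2, had sites of 9.15 and 23.51. Fmn1, beside Grem1, had 3 of at most 6.19, and 1 of them was 0.310 kb from a Hoxc10 summit. Fto, beside Irx3, had 7.14 and 2.26, and Dync1i1 had 10.21.

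The lists of long genes held the most hosts. Of 42 axon guidance and cell adhesion genes 23 were hosts (54.8%, 39.9 to 68.8%; 21 of 37 of 100 kb or more). Nrp1, a receptor for semaphorins, had sites of 33.08, 2.94, 2.94 and 2.94, and the netrin receptor gene Unc5c had 5 with a best of 10.21. Of 42 cytoskeleton, small GTPase and migration genes 22 were hosts (52.4%, 37.7 to 66.6%; 22 of 40 of 100 kb or more). Tiam1, a Rac exchange factor, had 4.46, 8.12, 2.94 and 41.82, Arhgef3 had 20.91, 5.30 and 6.19, and the polarity gene Pard3 had 4 with a best of 14.74. A list of 40 very long genes, most but not all of them of neurons and their synapses, had a median length of 1142 kb. Of these, 24 were hosts (60%, 44.6 to 73.7%), against 48.1% of all genes over 300 kb. That class begins at 300 kb, so the shares are not matched for length. The density of sites per Mb in this list was not computed. Rbfox1 had 4 sites with a best of 17.15.

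In marker lists of other tissues and in control lists the shares lay between 0 and 10.5%, beside 5.41% of all genes. There was 1 of 18 among surface ectoderm and apical ridge genes (5.56%, 0.988 to 25.8%), Grhl3 with sites of 2.26 and 5.30. Of 19 endothelial genes 2 were hosts (10.5%, 2.94 to 31.4%), Ets1 with a best of 8.12 and Fli1 with 4.46, or 2 of 6 of 100 kb or more. Of 18 blood genes 1 was (5.56%), Runx1, which is also in the cartilage list, or 1 of 2 of 100 kb or more. Among genes of 100 kb or more, 0 of 2 ectoderm, 0 of 3 neural and 0 of 1 liver genes were hosts. Of 20 neural and Schwann cell genes 0 were (0 to 16.1%), and of 16 liver genes 0 (0 to 19.4%). Of 24 housekeeping genes 1 was, with a site of 4.46 (4.17%, 0.739 to 20.2%). Most of these genes are short, with list medians between 5.68 kb (housekeeping) and 43.1 kb (endothelium), and so offer little interior.

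A Hoxc10 summit lay inside 239 of the 1183 hosts, or 20.2%, against 1.15% of the 20704 other protein-coding genes, and a shared Tbx4 site inside 85. Among hosts of 100 kb or more the share was 31.5% (28.1 to 35.1%), and among other protein-coding genes of 100 kb or more 7.55% (6.40 to 8.88%). The hosts of that size were longer, with a median of 243 kb, against 154 kb, and the part of this length in the difference was not tested. From site to site the distance to the nearest Hoxc10 summit had a median of 397 kb, and for 1281 sites, or 76.8%, it was over 100 kb. At the other extreme 31 sites had a Hoxc10 summit at over 200 and up to 500 bp, and 6 at over 500 and up to 1000 bp. The same distances were not computed for gene interior sequence at large. These values therefore do not show whether the sites were nearer to Hoxc10 or farther from it than that sequence.

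At the limits of the choice, the 2 nearest sites on each side had the following scores. Just inside 200 bp were the Runx2 site at 208 bp and a site of Ttc7 at 210 bp, which scored 15.93 and 10.21. Just outside were sites of Usp29 and Mast4, both with a Hoxc10 summit at 197 bp, which scored 6.19 and 10.21. Just inside the 1 kb limit were sites of Tanc1 (1004 bp from the gene end, score 5.30) and Has3 (1005 bp, 2.94). Just outside it were sites of Card14 (994 bp, 11.30) and Ep400 (991 bp, 2.26).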

How the data were processed

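ChIP-seq peak summits of Tbx4 and Hoxc10 (Abcam), 1 list each, were analysed. Bowtie2 2.2.6, MACS2 2.1.1.20160309, HOMER and mm10 are named, per the submitters' processing notes. The authors deposited summits of 1 bp with a MACS2 score on a −log10 scale; whether of p or q, how the listed 10.6% (Tbx4) and 40.1% (Hoxc10) of the numbered peaks were selected, which control library was used, whether samples were pooled and the read depth are unknown (not given in the sources used here). Weak binding can thus be missing from either list.

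Genes, starts and microRNAs came from RefSeq (GRCm38.p6): 21887 protein-coding genes on the primary chromosomes, with starts and strand for 918 of the 1183 hosts. No genome sequence was used here. Sites, hosts and lists were described with counts, medians with exact binomial intervals, 95% Wilson intervals of shares and 95% Poisson intervals of densities, with no test, as there is 1 sample per list. The choice of sites was tested on simulated data with known answers. Members and lists were chosen with earlier results of these data known. Named are hosts of the 10 highest-scoring sites, the 10 hosts with most sites (18 had 6 or more, and ties were broken by summed score), the 3 longest and 3 shortest, up to 4 of each list, those at the limits of the rule, and Tbx4 and Hoxc10. Genes with inner starts, the microRNA hosts and further list members such as Wnt11, Fgfr1 and Trps1 were named after their values were seen. Python 3.11.15, pandas 2.3.3, NumPy 2.4.6, SciPy 1.17.1 and matplotlib 3.10.9 were used. A few hosts are not reported here.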

Additional observations from a re-analysis of the deposited data

How the results depend on the processing

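Of 52 values recomputed under other settings, 34 stayed within 1.5 times the count or inside the interval of the share or median. No paired analysis was possible because each list is 1 sample. With Hoxc10 summits within 50 bp as shared, the share of the Tbx4 list was 37.1%, and with gene ends of 500, 2500 and 5000 bp it was 36.5, 32.2 and 30%; the median host length was 148 and 164 kb for the last 2. With all genes of the table these were 40.4% and 90.7 kb, and once per site the host median was 183 kb. With scores of at least 3.67 (2930 sites of the list) there were 1021 sites in 788 hosts, with medians of 6.19 and 146 kb. With scores of at least 7.14 (1234 sites) there were 412 sites in 360 hosts (33.4% of that part), with medians of 11.3 and 172 kb. Fewer sites and a higher floor follow from these choices. Each numbered peak has 1 summit, so keeping the highest could change nothing, and the values of that setting are counted among the 34. The share fell as the zone at gene ends grew, which the rule itself fixes, since a wider zone can only remove sites. Stricter scores left longer hosts, and the cause of that was not tested. The count over hosts with an entry in the promoter table, added after seeing the data, left the shares near a start inside their intervals. Without read counts, how depth limits the lists is unknown.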

Other observations

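The sites were spread over the autosomes at between 1.29 per Mb of gene interior (chromosome 10) and 2.36 per Mb (chromosome 14). On chromosome X there were 0 sites in 43.8 Mb of interior, and on chromosome Y 1. Whether peaks of chromosome X were removed before the list was made is unknown. Its sequence is counted in the densities and shares of sequence given above.

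Several strong sites were in hosts outside the gene lists. Sites of 49.41 lay in Slc1a2, a glutamate transporter gene, and in Tex14, and a site of 46.35 in Igsf3. Zbtb16, a zinc finger repressor of limb patterning, had a site of 34.51, at 65.0 kb from the nearest Hoxc10 summit. Scube3, a relative of Scube1, had a site of 38.86. The site of 47.87 inside Orc4 was nearest to an end of Acvr2a, an activin receptor gene, at 3.68 kb. These hosts were chosen after their values were seen.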
